A study of Homo sapiens with 12 samples.

Results

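Transcripts of the small heat shock protein genes HSPB8, CRYAB, HSPB1 and HSPB11 and of the co-chaperone gene BAG3 were followed in D283, a MYC-amplified line of medulloblastoma, a childhood tumour of the cerebellum. These 5 genes were taken by symbol from the 49651 genes with counts, of which 14704 had enough reads to be tested, and all 5 were among the tested genes. HSPB8 was chosen by its low level in cells with ABL1 and ABL2 inactivated, as measured in these same libraries. The contrast between the groups therefore helped to choose the members, and their values are given as a description, with no test. The inactivated group (3 libraries) was D283 in which ABL1 and ABL2, which encode the ABL tyrosine kinases, had been inactivated genetically, and the control group (3 libraries) was D283 with a scrambled control. Both groups carry the MYC amplification of the line and have the same medium in the labels. The sources used here do not give the method of inactivation, the number of clones or the time of harvest. They also do not say that replicate libraries were grown as separate cultures, so SDs and p-values here reflect the spread between libraries alone, which may be technical. The 12 samples of the series are these 6 libraries, each sequenced on 2 lanes, and the lanes were summed to between 33505903 and 49034159 counts per library.

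Small heat shock proteins are ATP-independent chaperones that share the alpha-crystallin domain. They hold unfolding proteins in a soluble state until HSP70 refolds them or they are degraded. BAG3 is a nucleotide exchange factor of HSP70 that binds HSPB8 and hands its clients to selective autophagy. CRYAB and HSPB1 are abundant in muscle, lens and stressed astrocytes and form mixed oligomers. HSPB11 carries the family name, but its product is the IFT25 subunit of the IFT-B complex, which carries cargo along cilia. RefSeq now lists the gene under the symbol IFT25.

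ABL1, the first of the inactivated kinase genes, averaged 61.9 ± 0.625 CPM (read counts scaled to library size) in the inactivated libraries and 153 ± 4.82 CPM in the control libraries (SD, n = 3 each). ABL2, the second, averaged 104 ± 7.60 CPM in the inactivated libraries and 138 ± 5.58 CPM in the control libraries. CPM values here are scaled by the trimmed mean of M-values (TMM). Of 6 markers of Group 3 medulloblastoma, NRL had no reads, 3 rose and 2 fell in inactivated cells. IMPG2 rose to 316 CPM in inactivated cells, against 66.7 CPM in control cells, CRX to 95.8 CPM, against 51.5 CPM, and MYC to 526 CPM, against 481.5 CPM. The rise of MYC was small and its groups overlapped, with 492.4 CPM in inactivated replicate 2 and 502.1 CPM in control replicate 3. OTX2 fell to 666 CPM in inactivated cells, against 829.8 CPM in control cells, and NEUROD1 to 17.8 CPM, against 28.5 CPM. Of 14704 tested genes, 59.3% differed between the groups at an adjusted p under 0.05 in edgeR's quasi-likelihood test, 29.6% higher and 29.7% lower in the inactivated cells.

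The promoters of HSPB8, HSPB1 and BAG3 are shown because these genes are known heat shock targets and span the range of differences among the members. Each line gives the 250 bases upstream of the annotated start in RefSeq on GRCh38.p14, each on the plus strand. The windows are chr12:119178681-119178930 for HSPB8, chr7:76302423-76302672 for HSPB1 and chr10:119651130-119651379 for BAG3. Capitals mark the heat shock core GAANNTTC, the head-to-head pair of units that heat shock factors bind.
HSPB8: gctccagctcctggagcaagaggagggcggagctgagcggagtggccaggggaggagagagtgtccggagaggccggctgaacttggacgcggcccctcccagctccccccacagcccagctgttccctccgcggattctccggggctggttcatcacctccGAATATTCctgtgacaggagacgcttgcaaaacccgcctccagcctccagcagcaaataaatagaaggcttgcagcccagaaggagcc
HSPB1: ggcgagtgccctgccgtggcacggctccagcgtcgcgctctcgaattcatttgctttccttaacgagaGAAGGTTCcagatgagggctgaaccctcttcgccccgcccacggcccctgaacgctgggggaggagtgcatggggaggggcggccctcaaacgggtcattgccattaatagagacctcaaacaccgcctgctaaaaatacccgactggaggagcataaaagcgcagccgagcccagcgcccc
BAG3: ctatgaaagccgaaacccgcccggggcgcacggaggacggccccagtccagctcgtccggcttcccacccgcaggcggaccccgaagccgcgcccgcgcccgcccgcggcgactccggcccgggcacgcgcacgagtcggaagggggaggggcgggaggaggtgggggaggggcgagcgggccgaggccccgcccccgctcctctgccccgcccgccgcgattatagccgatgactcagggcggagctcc

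The HSPB8 window held the core GAATATTC at -88 to -81, counted from the annotated start. The HSPB1 window held GAAGGTTC at -182 to -175. BAG3 and the windows of both HSPB11 start sites had no match to these letters. A match to GAANNTTC, which reads the same on both strands, was present in 5.78% of 35116 promoter windows of this length. The longer element GAANNTTCNNGAA, searched on both strands and containing the core, was found in 0.441% of windows and in none of these. The GC box GGGCGG, found in 42.6% of windows on either strand, was present in every window searched for the members. An AP-1 match, TGANTCA, lay at -19 to -13 of BAG3 and was present in 6.57% of windows. The TATA box TATAAA, the CCAAT box CCAAT, the E-box CACGTG and the tail-to-tail core TTCNNGAA, found in 10.7%, 32.0%, 6.34% and 6.62% of windows, had no match in the members' windows. Of the 5 members, 4 were matched in the promoter table, and CRYAB was not.

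HSPB8, the partner of BAG3, had the largest difference among the members. The gene lies on chromosome 12 (chr12:119178931-119194746, plus strand, 3 exon blocks). HSPB8 was present at 5.30, 5.12 and 5.73 CPM in the inactivated libraries, against 76.6, 77.3 and 77.3 CPM in the control libraries. The groups were far apart: the lowest control library stood 13.4 times above the highest inactivated library. These levels rested on 194, 254 and 196 reads in the inactivated libraries and 2724, 2683 and 2569 reads in the control libraries. The means were 5.38 ± 0.312 CPM in the inactivated libraries and 77.1 ± 0.381 CPM in the control libraries (SD, n = 3 each), 93.0% lower in inactivated cells, with a log2 fold change of -3.85 ± 0.060 (SE from the edgeR fit). Across all tested genes, 81 had a log2 fold change at or below that of HSPB8. Its level per length (CPM divided by the deposited exon length) exceeded that of 44.6% of tested genes in inactivated cells and 90.6% in control cells. Fewer cells with the transcript and less transcript per cell cannot be told apart in these bulk libraries.

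CRYAB, the alpha-B crystallin chain, was lower in all 3 inactivated libraries. The gene lies on chromosome 11 (chr11:111908564-111923740, minus strand, 5 exon blocks). CRYAB had 98.9, 82.7 and 93.0 CPM in the inactivated libraries, against 247, 249 and 269.8 CPM in the control libraries. Every inactivated library lay below every control library, and the nearest pair stood 2.50-fold apart. The means were 91.5 ± 8.22 CPM in inactivated cells and 255 ± 12.5 CPM in control cells, 64.2% lower, with a log2 fold change of -1.48 ± 0.057, and 547 tested genes lay at or below it. The level of CRYAB per length was above that of 94.3% of tested genes in inactivated cells, against 98.3% in control cells.

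HSPB1, also called HSP27, was the member with the highest level in both groups, in CPM and per length. The gene lies on chromosome 7 (chr7:76302673-76304292, plus strand, 3 exon blocks). HSPB1 had 220.6, 182.9 and 208.6 CPM in the inactivated libraries, against 380.9, 381.9 and 437 CPM in the control libraries. The groups did not overlap, and the nearest libraries stood 1.73-fold apart. The means were 204 ± 19.3 CPM in inactivated cells and 400.0 ± 32.2 CPM in control cells, 49.0% lower, with a log2 fold change of -0.97 ± 0.063, and 980 tested genes lay at or below it.

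HSPB11, the intraflagellar transport subunit, differed little. The gene lies on chromosome 1 (chr1:53911576-53946305, minus strand, 11 exon blocks). HSPB11 had 29.6, 26.5 and 29.1 CPM in the inactivated libraries, against 31.9, 34.2 and 37.4 CPM in the control libraries. The groups were adjacent without overlap, the nearest libraries being 1.08-fold apart. The means were 28.4 ± 1.64 CPM in inactivated cells and 34.5 ± 2.75 CPM in control cells, a log2 fold change of -0.28 ± 0.063. HSPB11 shares 23 exon bases with LOC124904181 on the opposite strand, and the sources used here do not say whether counting used strand.

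BAG3, the co-chaperone, did not separate the groups. The gene lies on chromosome 10 (chr10:119651380-119677819, plus strand, 4 exon blocks). BAG3 had 50.5, 42.8 and 46.1 CPM in the inactivated libraries, against 45.2, 47.2 and 49.2 CPM in the control libraries. The groups overlapped: inactivated libraries held both the highest and the lowest value. The means were 46.5 ± 3.85 CPM in inactivated cells and 47.2 ± 2.03 CPM in control cells, a log2 fold change of -0.025 ± 0.058. Non-overlapping groups were thus seen for 4 of the 5 members, while 63.2% of all tested genes had non-overlapping groups, so that count by itself does not set the members apart. Inactivated replicate 2 had the lowest inactivated value for all 5 members, and control replicate 3 the highest control value for all 5.

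**Figure D1:**
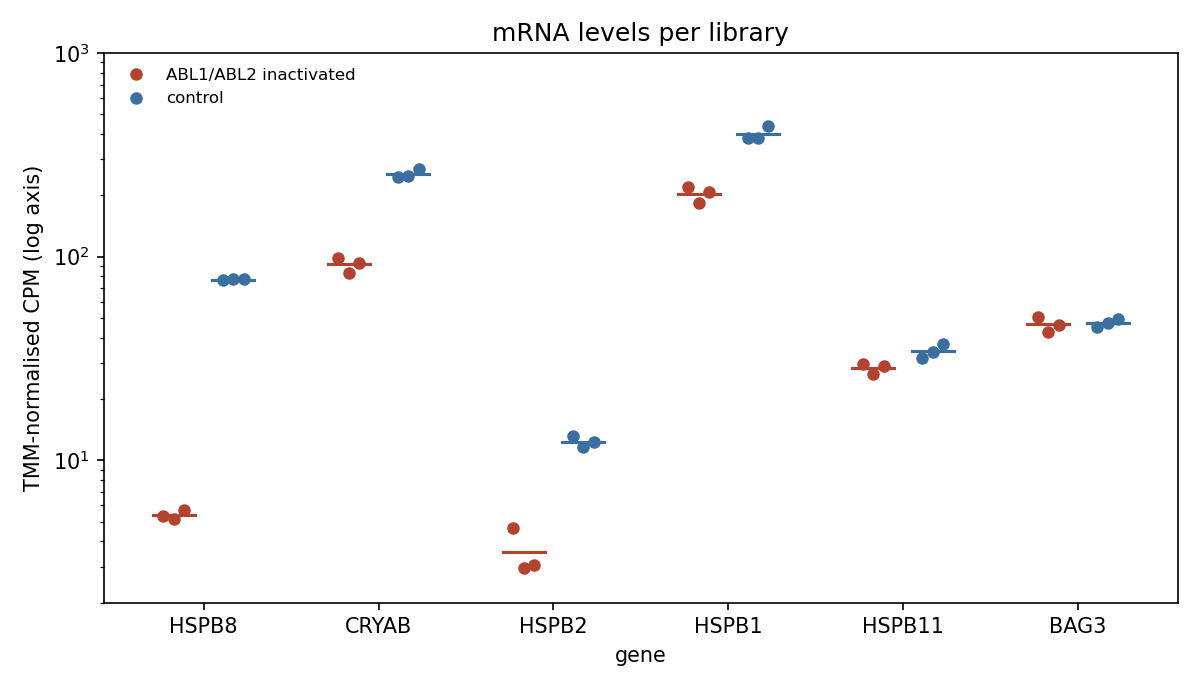
Level of each member and of HSPB2, described further on, in CPM (log axis) in the 3 inactivated libraries and, to their right, the 3 control libraries; points are libraries and horizontal lines are group means. HSPB8 is near 5 CPM in the inactivated libraries against about 77 CPM in the control libraries, while the points of BAG3 overlap.

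Per length, the order of the members was different between the groups. In RPKM, which divides CPM by the deposited exon length in kilobases, the inactivated cells ran from HSPB1 (262.5 ± 24.8) through CRYAB (66.5 ± 5.97), BAG3 (18.1 ± 1.5) and HSPB11 (6.13 ± 0.354) to HSPB8 (2.89 ± 0.168). Control cells ran from HSPB1 (514.8 ± 41.5) through CRYAB (185.5 ± 9.08), HSPB8 (41.4 ± 0.205) and BAG3 (18.4 ± 0.792) to HSPB11 (7.43 ± 0.594). HSPB8 was thus last in inactivated cells and the third highest in control cells. No pair of neighbours in either order had overlapping libraries.

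The balance between HSPB8 and its partner BAG3 was inverted in level per length. The HSPB8 to BAG3 ratio of RPKM was 0.145, 0.165 and 0.171 in the inactivated libraries, against 2.34, 2.25 and 2.16 in the control libraries. Per length, BAG3 was thus above HSPB8 in every inactivated library, and HSPB8 was above BAG3 in every control library. The CRYAB to HSPB1 ratio of RPKM was 0.253 ± 0.00179 in inactivated cells and 0.361 ± 0.0111 in control cells. Both genes were lowest in inactivated replicate 2 among inactivated libraries and highest in control replicate 3 among control libraries.

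HSPB2, the divergent neighbour of CRYAB and a muscle small heat shock protein, was not a member but is needed for the sum over the chaperone family. HSPB2 (chr11:111912734-111914093, plus strand) had 4.65, 2.94 and 3.07 CPM in the inactivated libraries, against 13.1, 11.7 and 12.3 CPM in the control libraries. It fell in inactivated cells (log2 fold change -1.81 ± 0.13, edgeR quasi-likelihood adjusted p = 3.8e-10, lower in 3 of 3 libraries). HSPB2 lies within the annotated span of CRYAB on the opposite strand, but no exon base is shared between them, while 188 are shared with the readthrough gene HSPB2-C11orf52. Summed over HSPB1, CRYAB, HSPB8 and HSPB2, the family had 364, 302 and 343 RPKM in the inactivated libraries, against 727, 728 and 815 RPKM in the control libraries. HSPB1 made up 78.1% of that sum in inactivated cells and 68.0% in control cells. CRYAB made up 19.8% in inactivated cells and 24.5% in control cells. HSPB8 made up 0.864% in inactivated cells and 5.49% in control cells.

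**Figure D2:**
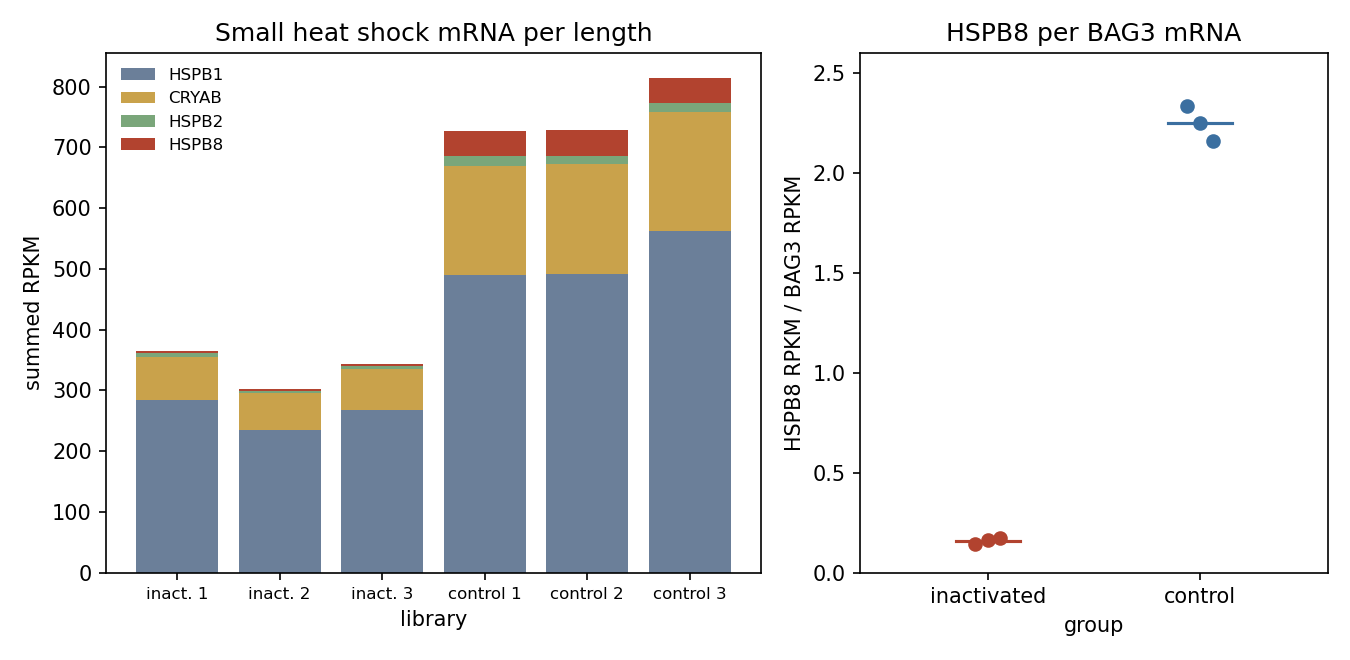
Summed RPKM of HSPB1, CRYAB, HSPB8 and HSPB2 in each library as stacked bars from 0, inactivated libraries on the left and control libraries on the right. The inactivated bars reach 302 to 364 RPKM and the control bars 727 to 815 RPKM, with HSPB1 the largest segment in each.

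To show whether a member differed along with the genes around it, each was set beside the 10 nearest tested genes on each side. Around HSPB8 the median log2 fold change over the 20 neighbours was -0.097, and none of them had a value below that of HSPB8. The next tested gene upstream was SRRM4, a neuronal splicing regulator at 0.835 CPM in inactivated cells and 4.19 CPM in control cells, which fell by 2.35 ± 0.17 on the log2 scale. On the other side, the low-count gene TMEM233 fell by 1.27 ± 0.38 on the log2 scale. Around CRYAB the median was -0.25, and 3 of the 20 neighbours had values below CRYAB, namely HSPB2, NCAM1 and LOC101928847. DIXDC1, the next gene beyond CRYAB, rose by 0.14 ± 0.049 on the log2 scale.

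The neighbourhood of HSPB1 differed from these. The median over its 20 nearest tested genes was -0.89 on the log2 scale. Of these 20, 16 fell, 1 rose and 3 did not pass the test, where 29.7% of all genes were lower. HSPB1 itself lay -0.080 from that median, and 9 of the 20 neighbours had lower values. MDH2, the mitochondrial malate dehydrogenase, fell by 1.23 ± 0.047, and YWHAG, a 14-3-3 protein, fell by 0.86 ± 0.042 on the log2 scale on the other side. With 5 or 20 genes on each side, HSPB1 lay 0.026 and 0.15 above the median of its neighbours. Across these windows the offset of HSPB1 from its neighbours thus ran from -0.080 to 0.15, against -3.81 to -3.72 for HSPB8 and -1.38 to -1.23 for CRYAB. HSPB11 lay -0.11 from a neighbour median of -0.17, with 6 of 20 neighbours below it. BAG3 lay -0.0050 from a neighbour median of -0.020, with 10 of 20 below it.

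**Figure D3:**
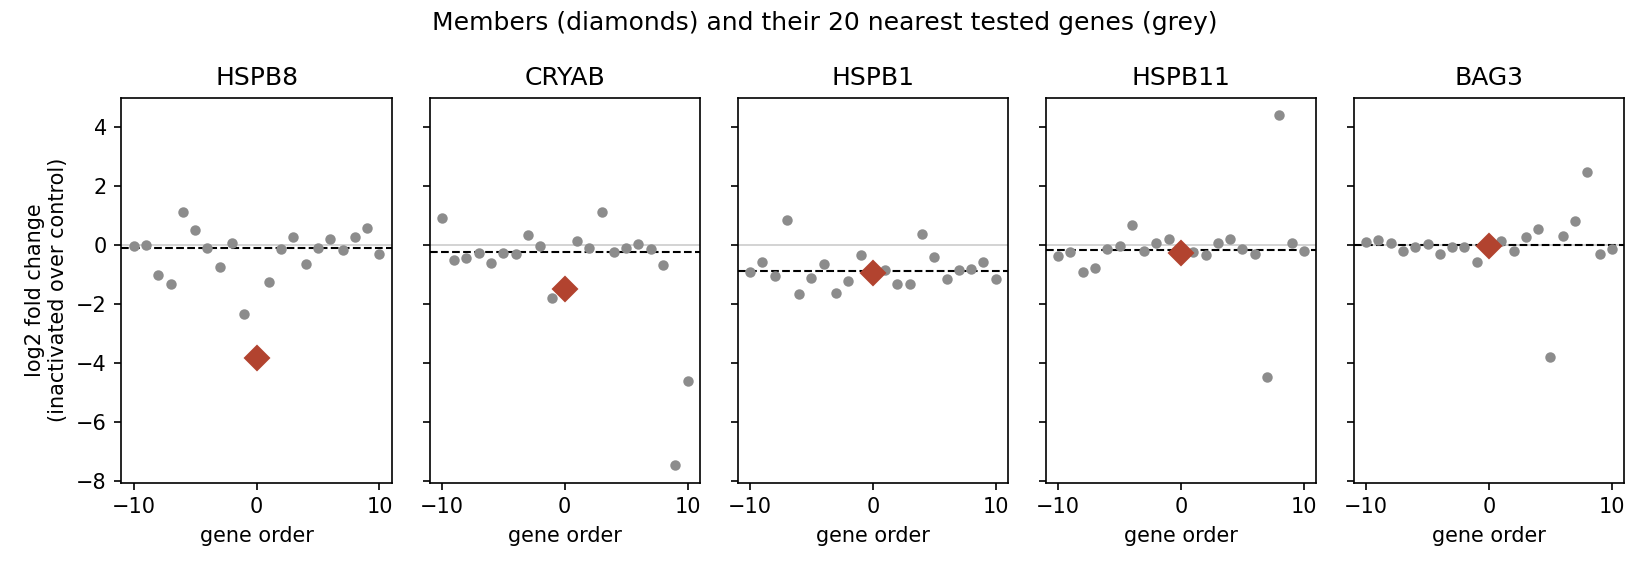
Log2 fold change (inactivated over control) of each member and its 10 nearest tested genes on each side, in gene order; the dashed line is the median of the neighbours. HSPB8 at -3.85 lies below all its neighbours, whereas HSPB1 at -0.97 sits among neighbours with a median of -0.89.

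The genes with the closest pattern to each member were taken from 9852 genes with a mean of at least 5 CPM, by the root mean square difference of centred log2(CPM + 0.5) over the 6 libraries. Nearest to HSPB8 was CLEC2B, a C-type lectin, at 0.831 ± 0.0926 CPM in inactivated cells and 18.4 ± 0.888 CPM in control cells, with a difference of 0.0908. The log2 fold change of CLEC2B was -4.475, against -3.845 for HSPB8. At so low a level the added 0.5 CPM narrows that gap in the measure. TUBA1C, an alpha tubulin, followed at 0.165, with 29.6 ± 2.52 CPM in inactivated cells and 320.6 ± 3.93 CPM in control cells. For CRYAB the nearest genes were IRF2BPL (0.0448), RD3 (0.0527) and CCDC80 (0.0659). For HSPB1 they were BUD23 (0.0413), which also lies on chromosome 7, HES1 (0.0418) and TUFT1 (0.0424). For HSPB11 they were YJU2 (0.0124), UXT (0.0232) and REEP4 (0.0238), and for BAG3 they included RAB11B (0.0142) and MLF2 (0.0202). These measures rank genes over the same 6 libraries that gave the members' values.

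The other genes of the pathways were counted in 15 lists that hold none of the members. Of 145 listed genes 121 were tested, and 42 rose, 31 fell and 48 did not pass the test, a called share of 60.3% against 59.3% of all genes. Their median log2 fold change was 0.056, against 0.0031 over all tested genes. The called share of the lists thus stood near the background.

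Among other small heat shock genes, 2 of 7 were tested. HSPB2 fell, and HSPB6 had 0.246 CPM in inactivated cells and 0.322 CPM in control cells without passing the test. CRYAA, the lens partner of CRYAB, and HSPB7 had no reads. All 4 tested BAG relatives of BAG3 passed the test, where 59.3% of all genes did, and 2 rose and 2 fell. BAG1, the founding member, fell to 49.8 ± 0.824 CPM in inactivated cells, against 75.6 ± 0.861 CPM in control cells. BAG2, an inhibitor of the ubiquitin ligase CHIP, rose to 132 ± 2.29 CPM in inactivated cells, against 97.3 ± 1.63 CPM in control cells.

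The HSP70 machine, to which BAG3 and the small heat shock proteins pass their clients, included genes that rose and genes that fell. In the HSP70 family 2 genes rose, 2 fell and 2 did not pass. The constitutive HSPA8 did not pass, with 3467 CPM in inactivated cells and 3293 CPM in control cells (edgeR quasi-likelihood adjusted p = 0.20, higher by 0.074 on the log2 scale). Of 8 HSP110 and other nucleotide exchange factors, 1 rose and 4 fell. Rises numbered 3 when library totals replaced TMM scaling. They numbered 2 under DESeq2, limma-voom, a 1 CPM filter, lane 1 alone, or without inactivated replicate 1 or 2. HYOU1, among the 4 that fell, has a further row for a copy on an alternate locus. Reads shared by the copies may be missing from its level, 1.37 CPM in inactivated cells and 2.135 CPM in control cells. Of 11 J-domain proteins, which load clients on HSP70, 4 rose and 4 fell, and DNAJB1 rose to 131 CPM in inactivated cells, against 108 CPM in control cells. Of 14 HSP90 genes and co-chaperones 4 rose and 1 fell, and HSP90AB1 rose to 6581 ± 149 CPM in inactivated cells, against 4755 ± 81.9 CPM in control cells. Of 9 chaperonin subunits 4 rose and 1 fell, and TCP1 rose to 917 ± 20.1 CPM in inactivated cells, against 578 ± 10.3 CPM in control cells. Only 2 chaperonin genes rose without inactivated replicate 3 or without control replicate 3. None fell when inactivated replicate 1, inactivated replicate 3, control replicate 1 or control replicate 2 was left out. The same held with library totals in place of TMM scaling and with lane 1 alone.

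Heat shock factors and their heat-inducible targets, the class to which HSPB1, CRYAB, HSPB8 and BAG3 belong, included genes that rose and genes that fell. HSF1, the main heat shock factor, had 1.45 CPM in inactivated cells and 1.29 CPM in control cells and did not pass the test. HSF1 also has a row for a copy on an alternate locus. Reads shared by the copies may be missing from its level, so its low level and missing call are not informative. HSF2 rose to 49.8 CPM in inactivated cells, against 41.1 CPM in control cells. Of 14 tested heat-inducible targets 4 rose, 3 fell and 7 did not pass. Their median was 0.069 on the log2 scale. SERPINH1, the collagen chaperone, fell to 325 ± 22.8 CPM in inactivated cells, against 521 ± 20.3 CPM in control cells. CACYBP rose to 333.5 ± 12.1 CPM in inactivated cells, against 252.5 ± 6.72 CPM in control cells.

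Around BAG3 and HSPB8, the partners and substrates of BAG3-assisted autophagy included 5 that rose and 6 that fell of 15 tested. Filamin C (FLNC), a classical client of the BAG3 and HSPB8 complex, rose to 99.8 ± 1.998 CPM in inactivated cells, against 28.9 ± 1.94 CPM in control cells (log2 fold change 1.79 ± 0.051, edgeR quasi-likelihood adjusted p = 9.1e-16, higher in 3 of 3 libraries). STX7, a syntaxin of late endosomes, rose to 21.9 ± 0.290 CPM in inactivated cells, against 4.04 ± 0.0567 CPM in control cells. AMOTL2, among the 6 that fell, had 106.4 ± 4.36 CPM in inactivated cells and 155.6 ± 5.79 CPM in control cells. Among autophagy receptors and ATG8 proteins 4 rose and 2 fell of 10. Only 1 fell when inactivated replicate 2, inactivated replicate 3 or control replicate 1 was left out, under DESeq2, or with lane 1 alone. SQSTM1, listed both here and among the BAG3 partners, was not tested. Its row held 0.080 CPM in inactivated cells and 0.097 CPM in control cells. SQSTM1 has a further row for a copy on an alternate locus, so reads shared by the copies may be missing from its level. CALCOCO2 rose to 131 ± 3.66 CPM in inactivated cells, against 59.3 ± 0.606 CPM in control cells, while MAP1LC3B fell to 34.4 ± 1.29 CPM in inactivated cells, against 46.2 ± 1.43 CPM in control cells. Of 5 kinases upstream of HSPB1, PRKD1 fell to 5.98 CPM in inactivated cells, against 13.2 CPM in control cells, and MAPKAPK2, which phosphorylates HSPB1, rose to 75.6 CPM in inactivated cells, against 52.8 CPM in control cells. MAPKAPK3 fell too, but not without inactivated replicate 2 or with lane 2 alone.

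For HSPB11, the other subunits of its complex give the setting. Of 16 tested IFT-B subunits 9 rose, 3 fell and 4 did not pass. Their median was 0.26 on the log2 scale, against -0.28 for HSPB11 itself, with a called share of 75.0% against 59.3% of all genes. IFT88 rose to 30.1 ± 0.955 CPM in inactivated cells, against 16.7 ± 0.677 CPM in control cells. IFT27, the direct partner of the HSPB11 product, had 8.07 CPM in inactivated cells and 8.68 CPM in control cells and did not pass. Of 6 IFT-A subunits 1 rose and 1 fell, the fall being lost without inactivated replicate 1 or with lane 2 alone. Of 10 genes of the BBSome list 3 rose and 1 fell, the fall being lost with lane 1 alone.

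**Figure D4:**
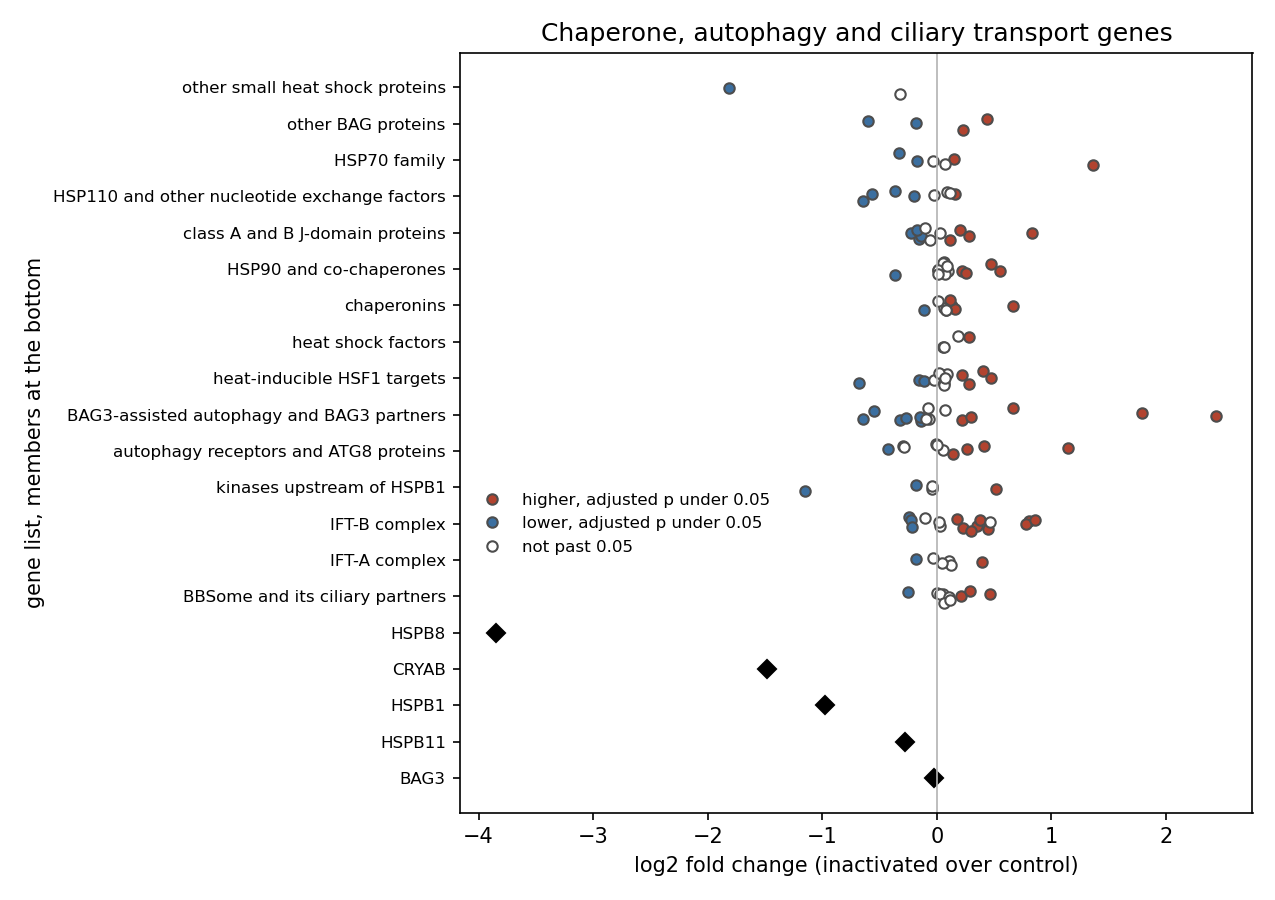
Log2 fold change (inactivated over control) of the tested genes of each pathway list, 1 row per list, with genes that rose, fell or did not pass the test marked apart and the 5 members as diamonds at the bottom. HSPB8 at -3.85 lies further left than any listed gene, and the lists spread to both sides of 0.

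Chromosome moved with part of these counts. Of the 8 tested pathway genes on chromosome 6, among them HSP90AB1, TCP1, BAG2, HSF2 and STX7, 7 rose and none fell. Over all tested genes 29.6% were higher and 29.7% lower. The median log2 fold change of these 8 was 0.51, but -0.049 when each was set against its 20 nearest genes. On that relative scale HSP90AB1, BAG2, HSF2 and TCP1 lay between -0.14 and 0.15. STX7 did not follow its neighbours and lay 2.09 above their median of 0.35. On chromosome 17, 3 of 4 rose, with a median of 0.43, or 0.10 against their 20 nearest genes. There CALCOCO2 lay 0.41 and NBR1 -0.31 from the median of their neighbours. Leaving both chromosomes out, a choice made after the data were seen, 32 rose and 31 fell of 109, with a median of 0.028. These 109 still held genes that lay close to shifted neighbours. CACYBP and MAPKAPK2 on chromosome 1, which rose, lay 0.054 and 0.10 from neighbour medians of 0.35 and 0.41. DNAJB11 on chromosome 3, which fell, lay -0.0027 from a neighbour median of -0.23. The part of the chromosomes in the gene counts was not tested.

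Markers of astrocytes and muscle, where CRYAB is known to be abundant, were examined alongside the members. Of 5 astrocyte markers, ALDH1L1 and S100B had no reads, GFAP and AQP4 were at most 0.161 CPM in any library, and SLC1A3 had 54.4 CPM in inactivated cells and 75.9 CPM in control cells. The 5 muscle markers summed to between 17.1 and 19.4 CPM in the inactivated libraries and between 4.28 and 4.52 CPM in the control libraries, nearly all of it CKM, with DES at 0.649 CPM in inactivated cells and 0.185 CPM in control cells. Leukocyte markers summed to 0.547 to 1.01 CPM in the inactivated libraries and 0.507 to 1.02 CPM in the control libraries. Endothelial markers summed to 9.66 to 11.02 CPM in the inactivated libraries and 4.12 to 4.46 CPM in the control libraries. That difference came from KDR, at 8.41 CPM in inactivated cells and 2.22 CPM in control cells. VWF had 1.86 CPM in inactivated cells and 2.015 CPM in control cells without passing the test. PECAM1, CDH5 and TEK had too few reads to be tested. Fibroblast markers summed to 23.8 to 27.0 CPM in the inactivated libraries and 17.2 to 18.3 CPM in the control libraries. Within the fibroblast list COL1A1 rose to 15.1 CPM in inactivated cells, against 8.11 CPM in control cells, and PDGFRA to 8.91 CPM, against 5.96 CPM, while DCN fell to 0.979 CPM in inactivated cells, against 3.27 CPM in control cells. The part of these marker levels in the members' values was not tested.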

How the data were processed

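Enriched mRNA was made into KAPA HyperPrep libraries and read as 50 bp pairs on an Illumina NovaSeq, per the labels. STAR 2.7.2b, featureCounts 1.6.3 and the build GRCh38.p14 are named in the submitters' processing notes. The authors deposited unnormalized whole-number counts for every gene in each lane, beside an exon length per gene. The sources used here do not state how strand or multi-mapping reads were treated.

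Of 49677 genes, 26 without counts were left out. Lanes were summed per library. edgeR 4.0.16 in R 4.3.3 kept 14704 genes (minimum count 10, minimum total 15), with TMM scaling, a two-sided quasi-likelihood test and Benjamini-Hochberg adjustment at 0.05. Levels are TMM CPM, or RPKM by the deposited length. A count of 3 corresponds to between 0.0605 and 0.0903 CPM.

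The members and lists were chosen with earlier results of these data known. Named genes are the members, up to 4 called genes of lowest p per list (2 by level where none passed), 3 genes most like each member (some are not reported here), HSPB2, ABL1 and ABL2. Other genes named were chosen after their values were seen. Alternatives were library totals without TMM, other filters, DESeq2 1.42.0, limma-voom, single lanes, each library left out and other neighbour windows. Statistics were tested on simulated data.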

Additional observations from a re-analysis of the deposited data

How the results depend on the processing

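Under 14 alternative settings the log2 fold change lay between -3.89 and -3.80 for HSPB8, between -1.54 and -1.41 for CRYAB, between -1.03 and -0.90 for HSPB1 and between -0.33 and -0.23 for HSPB11. For BAG3 it lay between -0.087 and 0.037, above 0 only without inactivated replicate 2. All of these extremes came from leaving out 1 library. Relative to the 20 nearest tested genes the values were -3.75 for HSPB8, -1.23 for CRYAB, -0.080 for HSPB1 and -0.11 for HSPB11. With 5 genes on each side the neighbour median was -0.10 for CRYAB, -0.999 for HSPB1, 0.0016 for HSPB11 and -0.079 for BAG3, and with 20 on each side it was -0.034 for HSPB8, -0.13 for CRYAB and -1.13 for HSPB1. The cause of these shifts with the window was not tested. Pathway genes that rose numbered 39 to 49 and those that fell 25 to 35. Within single lists, HSP70 genes that rose numbered 1 to 3 and those that fell 2 to 4, nucleotide exchange factors that rose 1 to 3, chaperonins that rose 2 to 6 and fell 0 to 1, and other small heat shock genes that fell 1 to 2. Of 51 named genes other than the members none changed direction, and 7 (HSPA12B, CCT2, CCT7, MAPKAPK3, TTC21B, ARL6 and BBS4) lost their call under at least 1 setting. No paired analysis was possible because the labels give the groups no shared replicate numbers. CRYAA and HSPB7 had no reads, which at 3 counts allows up to between 0.0605 and 0.0903 CPM per library. Differences below that were thus not detectable at this depth. The bound holds only for reads assigned to these rows, because the treatment of multi-mapping reads is not stated.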

Other observations

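Of the 24 pathway genes that were not tested, 10 have further rows for copies on alternate loci, and in none of these 10 did the row of the gene itself exceed 11 counts in a library. The heat-inducible HSP70 genes HSPA1A and HSPA1B are among them, and were chosen here after their values were seen. Summed over their 8 alternate rows, HSPA1A and HSPA1B had 196, 243 and 158 counts in the inactivated libraries, against 56, 61 and 70 counts in the control libraries. This is 4.96 ± 0.374 CPM in inactivated cells and 1.81 ± 0.270 CPM in control cells (SD, n = 3 each), and the groups did not overlap. Nearly all of the sum came from the HSPA1B rows, which reached 240 counts in a library, against at most 4 for the HSPA1A rows. These near-identical genes share reads, so the sum holds only the reads that were assigned to the alternate copies, and its difference was not tested. Among the tested pathway genes, HSF1 and HYOU1 also have an alternate row, with at most 82 and 79 counts on their own rows. None of the 5 members has an alternate row.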
